A study of Homo sapiens with 18 samples.

Results

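The comparison described here asked how SJSA cells answered the MDM2 antagonist Nutlin during the 6 h after the CDK4/6 inhibitor PD0332991 (Palbociclib) had been taken away. Its members are the 3 libraries labelled N+PD24 and the 3 labelled PD24, which make 6 of the 18 libraries of the series, and they were chosen by their labels alone. SJSA is an established osteosarcoma line with wild-type p53 and amplified MDM2 and CDK4 genes. Both groups had received 10 µM PD0332991 for 24 h, so the controls carried the pretreatment too, and N+PD24 had 20 µM Nutlin for 6 h in addition. That the inhibitor was then washed out, and that the PD24 cells were also kept without it for those 6 h, comes from the study's treatment scheme and not from the labels. The scheme writes 2.5 as well as 20 µM for Nutlin. All values come from 1 cell line at 1 time and 1 dose. The study calls the replicates biological triplicates, and the labels do not say whether these were separate cultures, so p-values measure the spread between these libraries. Nutlin against DMSO (no PD0332991) and N+PD30 against PD30 (PD0332991 kept on for 30 h), each with 3 libraries a group and the same Nutlin dose and time, serve as comparisons.

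The p53 protein is a transcription factor that is held low by MDM2, an E3 ubiquitin ligase whose own gene p53 activates. Nutlin occupies the p53-binding pocket of MDM2, so that p53 accumulates without DNA damage and its target genes are transcribed. These targets fall into feedback regulators, cell cycle arrest genes, apoptosis genes, DNA repair genes, and genes of metabolism and adhesion. CDK4 and CDK6 with D-type cyclins phosphorylate the retinoblastoma protein and thereby release E2F factors, which drive the genes of DNA synthesis. A CDK4/6 inhibitor keeps the retinoblastoma protein bound to E2F, and p21, the product of CDKN1A, blocks the cyclin E and cyclin A kinases further downstream.

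Reads on genes numbered 23720994 to 40231041 per library (median 28575206). Levels are given in CPM, a gene's count relative to the library total, after scaling between libraries. CPM are not divided by gene length, so they compare libraries and not genes. Of 21340 genes with a read, 15517 passed the filter on low counts and were tested with limma on log2 values, and a gene is said to have risen or fallen at a Benjamini-Hochberg adjusted p under 0.05. It is said to be called when the log2 fold change also exceeded 1 in size. Where a rise or fall is said to fail in some alternatives, its adjusted p was 0.05 or more under those other ways of processing, given at the end. In bulk RNA, fewer cells expressing a gene and less RNA per cell cannot be told apart. The summed level of 14 osteoblast markers was 4488 to 6196 CPM in PD24 and 5761 to 6708 CPM in N+PD24. Most of it was COL1A1, SPARC and COL1A2, whereas SP7, BGLAP and IBSP, which mark committed osteoblasts, were at or near 0 in all 6 libraries. The 8 mesenchymal markers summed to 5457 to 5806 CPM in PD24 and 5687 to 6486 CPM in N+PD24.

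After removal of the inhibitor, Nutlin changed a large part of the transcriptome. In N+PD24, 2299 genes (14.8% of those tested) rose and 3356 (21.6%) fell relative to PD24. With the fold threshold, 1326 genes (8.55%) were called higher and 1221 (7.87%) lower. The 3 N+PD24 values lay wholly above the 3 PD24 values for 3331 genes (21.5%) and wholly below them for 4262 (27.5%). The median log2 fold change of all genes tested was -0.0046, and scaling by total counts moved it to -0.10. At that scaling 1155 genes were called higher and 1474 lower, so the balance of the directions depended on the scaling. The genes called higher were often scarce: 602 of them had a mean under 1 CPM over the 6 libraries, against 142 of those called lower. A further selection acts on genes that were silent before Nutlin, since the 131 tested genes with at most 3 reads in each PD24 library could pass the filter only through N+PD24, and all 131 were called higher.

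**Figure D1:**
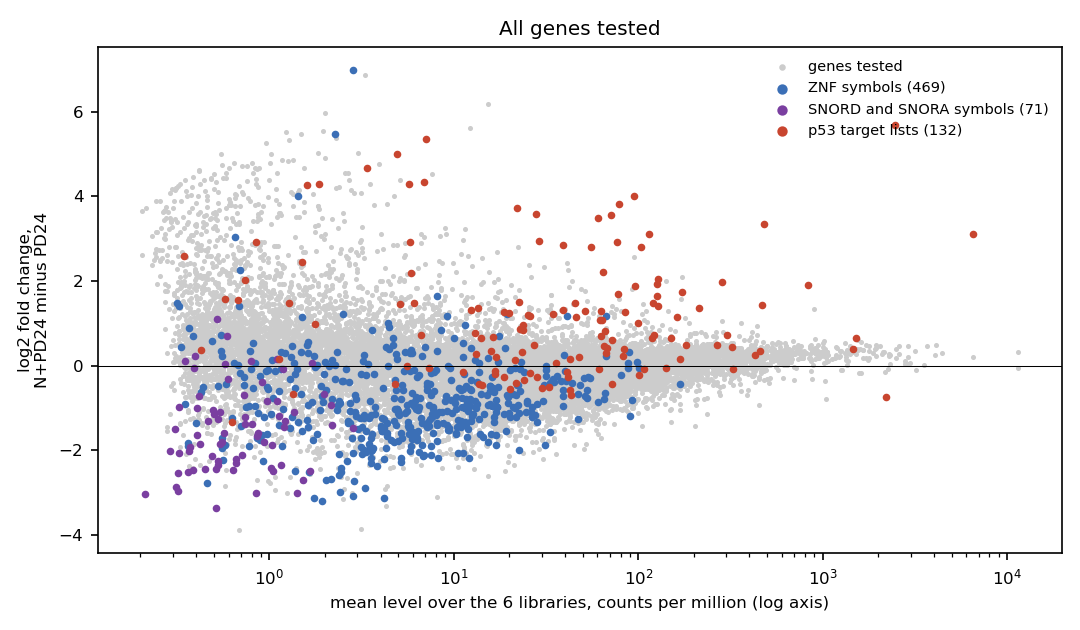
Each point is 1 of the 15517 genes tested, with its mean level over the 6 libraries (CPM, log axis) and its log2 fold change, N+PD24 minus PD24. The 132 p53 list members (red) reach a log2 fold change of 5.68 and have a median of 0.92, the 469 genes with ZNF symbols (blue) have a median of -0.89, and the 71 small nucleolar RNA symbols (purple) have a median of -1.58.

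The p53 target genes rose widely. Of 137 genes in 7 lists, compiled from general knowledge with earlier results of these data known, 132 could be tested, of which 84 rose and 5 fell. Their median log2 fold change was 0.92, beside -0.0046 for all genes, and 64 were called higher and none lower. The background shares of 14.8% risen and 8.55% called higher apply to these counts. Scarce members such as PVRL4, ABCA12 and CDC42BPG passed the low-count filter only through N+PD24. Their rises had to be high and are a description, and the counts include them. The count of members that fell rests on small changes. It was 11 with total-count scaling. It was also 11 with replicate number as a block in the fit, with at least 1 fall in each of the 7 lists. It was 3 without PD24 replicate 1, without PD24 replicate 2 or without N+PD24 replicate 3, and 1 without N+PD24 replicate 2.

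CDKN1A encodes p21, the cyclin-dependent kinase inhibitor that p53 uses to stop the cell cycle (GRCh37 chr6:36644237-36655114). It stood at 89.4, 88.2 and 103 CPM in the PD24 libraries and at 4318, 5287 and 4805 CPM in N+PD24. Every N+PD24 library was far above every PD24 library, and the replicates of a group lay close together. The log2 fold change was 5.68 (SE 0.12, adjusted p = 1.46e-09 by limma), a 51.2-fold rise. A gene on the opposite strand, DINOL, overlaps CDKN1A, and the strandedness of the libraries is not stated, so its reads cannot be told apart from those of CDKN1A with certainty.

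Among the feedback regulators, MDM2 itself (GRCh37 chr12:69201957-69239324) had 1520, 1145 and 1338 CPM in PD24 and 15124, 9722 and 10062 CPM in N+PD24. The groups did not overlap, and N+PD24 replicate 1 was the highest library. The log2 fold change was 3.10 (SE 0.18, adjusted p = 1.94e-06), and the gene of carboxypeptidase M overlaps it on the other strand. TP53INP1, a p53 cofactor in stress and autophagy, rose by 2.80 on the log2 scale. CCNG1 (cyclin G1, which binds the PP2A phosphatase) rose by 1.41 and PPM1D, the WIP1 phosphatase that dephosphorylates p53, rose by 1.17. MDM4, the MDM2 partner that masks the p53 transactivation domain, had a log2 fold change of -0.18 (adjusted p = 0.438). The ubiquitin ligases RCHY1 (Pirh2) and TRIM32 fell, by 0.55 and 0.58 on the log2 scale, which failed in 5 and 1 of 17 alternatives. In this list of 10 genes, 4 rose, 2 fell and the median log2 fold change was 0.01.

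**Figure D2:**
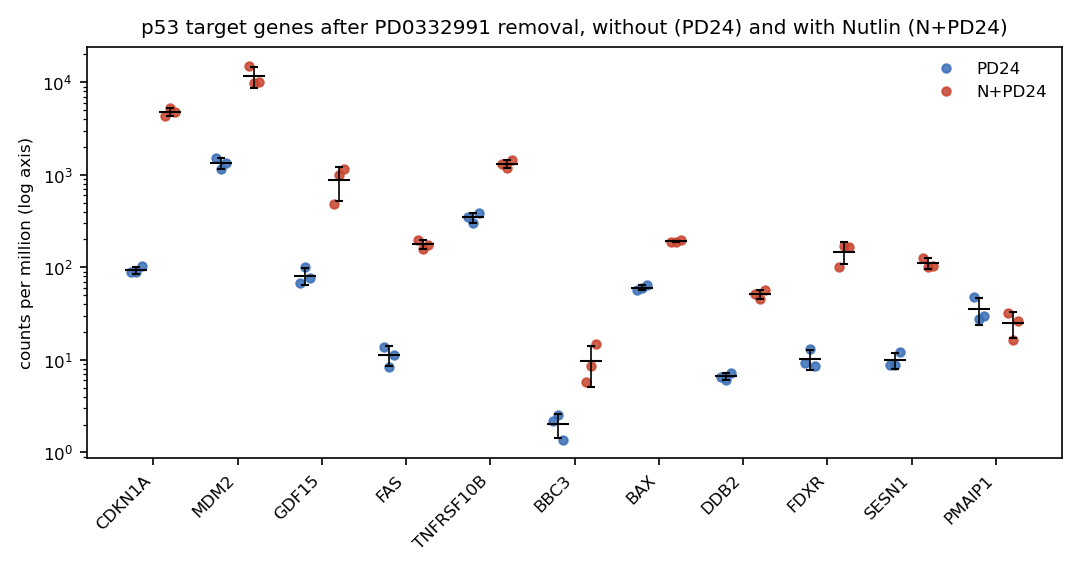
Levels of 11 genes in each library (CPM, log axis), with PD24 in blue and N+PD24 in red, and black bars giving the mean ± SD of 3 replicates. From CDKN1A to SESN1 the groups are separate in each of the 10 genes, for example 89.4 to 103 against 4318 to 5287 CPM for CDKN1A, whereas the groups of PMAIP1 overlap.

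In the arrest list, 10 of 14 members rose and none fell, with a median log2 fold change of 1.24. GDF15, a secreted TGF-beta family factor, went from 67.5, 101 and 75.9 CPM to 478, 987 and 1152 CPM. Its N+PD24 replicates spread more than those of CDKN1A, with replicate 1 the lowest, and the log2 fold change was 3.35 (SE 0.28, adjusted p = 1.89e-05). BTG2, an antiproliferative adaptor of the CCR4-NOT deadenylase, rose from 3.55, 4.2 and 5.07 CPM to 55.5, 41.5 and 58.2 CPM, a log2 fold change of 3.59. CDC42BPG, a Cdc42-binding kinase, rose by 4.27 from at most 0.163 CPM. SFN (14-3-3 sigma, which retains CDK1 in the cytoplasm) remained scarce after its rise of 2.60, at 0.579 to 0.617 CPM. E2F7, a repressor of E2F target genes, rose by 1.5 (adjusted p = 0.00203), FBXW7, the ubiquitin ligase subunit that degrades cyclin E, by 0.97 and PLK3 by 0.78. GADD45A rose by 0.47 (adjusted p = 0.0344), and this failed in 6 of 17 alternatives.

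In the apoptosis list, 17 of 22 members tested out of 25 rose and none fell, with a median of 1.45. With the replicate block 19 rose and 2 fell. FAS, the CD95 death receptor, was at 13.9, 8.41 and 11.4 CPM in PD24 and at 199, 159 and 175 CPM in N+PD24. The lowest N+PD24 library was more than 10 times the highest PD24 library, and the log2 fold change was 4.0 (SE 0.18, adjusted p = 1.3e-06). TNFRSF10B, the TRAIL receptor DR5, rose from 353, 302 and 387 to 1294, 1191 and 1437 CPM, a log2 fold change of 1.91. TNFRSF10A, the other death-signalling TRAIL receptor, rose by 2.44 to at most 2.86 CPM, and the decoy receptor TNFRSF10D rose by 1.44.

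Of the BCL2 family genes that p53 activates, BBC3 (PUMA) was scarce, at 2.18, 2.53 and 1.38 CPM in PD24 and 5.81, 8.56 and 14.7 CPM in N+PD24. The groups were separate and the log2 fold change was 2.18 (SE 0.33, adjusted p = 0.000543). BAX, which permeabilises the mitochondrial outer membrane, rose from 56.6, 60.1 and 64.7 to 187, 189 and 195 CPM, a log2 fold change of 1.66. PMAIP1 (NOXA) gave 48.2, 27.8 and 29.9 CPM against 31.8, 16.5 and 26.1 CPM. These groups overlapped, and the log2 fold change of -0.52 did not pass the test (adjusted p = 0.143), whereas it did with the replicate block (adjusted p = 0.00231). BAK1, the second pore-forming member, had a log2 fold change of 0.31 (adjusted p = 0.0706, and 0.0209 with the block). TP53I3 (PIG3, a quinone oxidoreductase) went from 24.5, 30.1 and 23.8 to 166, 188 and 188 CPM, with separate groups and a log2 fold change of 2.79 (SE 0.13, adjusted p = 1.3e-06). ZMAT3, an RNA-binding zinc-finger protein, rose by 1.97, TRIAP1, a mitochondrial survival factor, by 1.70, AEN, an exonuclease, by 1.27, PHLDA3, an inhibitor of AKT, by 1.16 and APAF1, the apoptosome scaffold, by 0.87. PIDD and NOTCH1 passed the test with log2 fold changes of 1.46 and 1.21 although 1 N+PD24 library overlapped PD24 in each, and these rises failed in 6 and 5 of 17 alternatives.

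Most DNA repair targets rose, 7 of 11 tested, with a median of 1.14. DDB2, the damage sensor of nucleotide excision repair, went from 6.55, 6.12 and 7.29 to 51.4, 45.6 and 57.5 CPM, a log2 fold change of 2.94 (SE 0.15, adjusted p = 1.51e-06). POLH, the polymerase that copies past ultraviolet damage, had 18.7, 16.1 and 18.7 CPM in PD24 and 151, 124 and 130 CPM in N+PD24, a log2 fold change of 2.91. In both genes the groups were far apart and the replicates close. RRM2B, the p53-inducible ribonucleotide reductase subunit, rose by 1.92, XPC by 1.89, ASCC3 by 1.74, RPS27L by 1.14 and REV3L by 0.60. TP53BP1, a scaffold at double-strand breaks, fell by 0.43 (adjusted p = 0.0326), which failed in 6 of 17 alternatives.

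In metabolism and redox control, 15 of 23 tested members rose and none fell (median 0.98). FDXR, the mitochondrial ferredoxin reductase, rose from 9.28, 13 and 8.49 to 102, 172 and 168 CPM, a log2 fold change of 3.82. For SESN1, a sestrin that restrains mTORC1, the values were 8.73, 8.85 and 12.2 against 128, 101 and 103 CPM, a log2 fold change of 3.48. The groups were separate in both. ABCA12, a lipid transporter, and ACER2, an alkaline ceramidase, rose by 4.67 and 4.35 from under 1 CPM. CMBL rose by 2.20, C12orf5 (TIGAR, which lowers glycolytic flux) by 2.04, SESN2 by 1.24 and PANK1 by 0.72, the last failing in 2 of 17 alternatives. GPX1 (0.49, adjusted p = 0.182), TKT (0.35, 0.129) and SCO2 (-1.34, 0.169), a cytochrome c oxidase assembly factor, did not pass the test. With the replicate block GPX1 and TKT passed it (adjusted p = 0.00906 and 0.00604). In the autophagy and mTOR list 2 of 13 members rose, DRAM1 by 0.74 and TPCN1 by 0.41 (the latter failing in 1 of 17 alternatives), and the median was 0.15. ULK1, the kinase that starts autophagy, had a log2 fold change of -0.42 with overlapping groups (adjusted p = 0.317).

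The remaining 39 targets, of adhesion, signalling and other roles, gave 29 rises, 2 falls and a median of 1.22. PVRL4 (nectin-4, a cell adhesion molecule) went from 0.456, 0.245 and 0.241 to 14.5, 10.6 and 16.4 CPM, a log2 fold change of 5.35. WDR63 rose by 4.99, INPP5D (the SHIP1 phosphatase) by 4.30, SPATA18, which acts in mitochondrial quality control, by 3.72 and the death-domain receptor EDA2R by 3.56. CYFIP2, a regulator of actin assembly, rose from 23.0, 18.2 and 30.5 to 197, 189 and 224 CPM and HSPA4L, a chaperone, from 7.98, 7.63 and 13.2 to 61.3, 57.8 and 85.6 CPM. Both were separate between groups, with log2 fold changes of 3.12 and 2.85. TRAF4 rose by 1.47 and KITLG (stem cell factor) by 1.19. THBS1, which encodes thrombospondin 1, fell by 0.75 (adjusted p = 0.0376), with overlapping groups, and this failed in 6 of 17 alternatives. RAP2B, a small GTPase, fell by 0.69.

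To show what some of these promoters look like, the RefSeq window around each start site (GRCh38.p14, 250 bases before the start to 50 after it) was searched for the p53 response element. The element is 20 bases long and was searched as 2 abutting copies of its decamer, with the core C and G of each copy fixed and at most 2 mismatches elsewhere. It was found in 98 of 27303 genes with a window (0.359%), in 13 of 725 genes called higher (1.79%), in 1 of 843 called lower (0.119%), and in 10 of the 112 p53 list members with a window (8.93%). Of those 10, AEN, DDB2, FAS, GRHL3, HSPA4L and MDM2 were called higher, and DCP1B, GLS2, GPX1 and PANK1 were not. Among all genes tested, the share called higher was 8.55%. A match is a stretch of letters and not a measured binding site, and known elements lie outside such windows, as for CDKN1A, whose window holds no match. The windows of MDM2 (chr12:68808767-68809036, plus strand), FAS (chr10:88991181-88991450, plus strand) and DDB2 (chr11:47214724-47214993, plus strand) follow from 250 bases before to 20 after the start, with the match in capitals. They are shown because these 3 genes rose by 3.10, 4.0 and 2.94 on the log2 scale.
MDM2: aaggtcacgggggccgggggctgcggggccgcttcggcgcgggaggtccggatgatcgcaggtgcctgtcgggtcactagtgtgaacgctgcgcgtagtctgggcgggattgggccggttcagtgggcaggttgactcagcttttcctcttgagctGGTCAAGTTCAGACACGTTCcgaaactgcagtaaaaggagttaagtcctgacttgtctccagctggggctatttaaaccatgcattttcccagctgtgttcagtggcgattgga
FAS: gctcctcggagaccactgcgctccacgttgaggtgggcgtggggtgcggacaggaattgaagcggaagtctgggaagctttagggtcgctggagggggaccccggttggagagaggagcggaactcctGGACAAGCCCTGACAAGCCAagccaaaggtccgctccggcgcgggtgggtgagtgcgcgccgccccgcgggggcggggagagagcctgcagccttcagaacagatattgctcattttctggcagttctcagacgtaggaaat
DDB2: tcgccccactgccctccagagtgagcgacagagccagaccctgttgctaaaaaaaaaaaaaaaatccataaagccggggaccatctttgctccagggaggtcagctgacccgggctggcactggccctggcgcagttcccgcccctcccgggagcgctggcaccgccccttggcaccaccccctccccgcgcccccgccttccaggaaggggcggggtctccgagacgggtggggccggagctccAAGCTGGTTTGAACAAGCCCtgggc
The matching 20 bases alone are given for HSPA4L (chr4:127783509-127783528), AEN (chr15:88621306-88621325) and GRHL3 (chr1:24322923-24322942), all on the plus strand, which rose by 2.85, 1.27 and 1.58.
HSPA4L: AAACATGTTTCCACATGTTC
AEN: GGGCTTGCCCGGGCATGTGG
GRHL3: GACCTGGTTCAGGCTTGCCC

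Most of the listed genes of DNA synthesis fell, and 5 rose. Of 52 G1/S genes, which E2F factors drive, 32 fell and 5 rose, with a median log2 fold change of -0.86 and 19 called lower. The background shares for this comparison are 21.6% fallen and 7.87% called lower. CDC25A, the phosphatase that activates CDK2, had 4.92, 4.94 and 3.64 CPM in PD24 and 0.485, 0.558 and 0.398 CPM in N+PD24. CCNE1 (cyclin E1) had 7.65, 8.24 and 6.97 CPM against 1.37, 1.34 and 1.52 CPM. In both the groups were well separated, with log2 fold changes of -3.14 (SE 0.25, adjusted p = 1.51e-05) and -2.41 (SE 0.19, adjusted p = 1.33e-05). GINS3, a subunit of the replicative helicase, fell by 2.14 and MCM4, another, by 1.34. DTL, a substrate receptor of the CRL4 ligase, fell by 1.75 with overlapping groups, which failed in 4 of 17 alternatives.

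Against this majority, 5 G1/S genes rose, and all 5 were called. Their share, 9.62%, stands beside 14.8% risen and 8.55% called higher among all genes tested. TYMS, thymidylate synthase, went from 1.86, 1.51 and 1.28 to 12.4, 11.2 and 11.4 CPM. The groups were wide apart and the N+PD24 replicates close, with a log2 fold change of 2.90 (SE 0.20, adjusted p = 5.25e-06). ENOSF1 and TYMSOS overlap TYMS on the other strand. PCNA, the sliding clamp of the replicative polymerases and a known p53 target, went from 45.3, 34.6 and 43.4 to 148, 140 and 143 CPM, a log2 fold change of 1.82 (SE 0.13, adjusted p = 8.76e-06). E2F2, an activating E2F factor, rose from 0.684, 0.530 and 0.796 to 1.59, 3.01 and 2.21 CPM, a log2 fold change of 1.68. LIG1, the replicative DNA ligase, which is named because it completes this count, rose from 4.85, 5.79 and 4.82 to 12.9, 16.9 and 20.0 CPM, a log2 fold change of 1.66. MCM10, a helicase activator, rose by 1.64 (adjusted p = 0.0155), with 1 PD24 library at 2.05 CPM and the other two under 1 CPM, and the gene did not pass without N+PD24 replicate 2 (adjusted p = 0.0627).

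Members with the same promoter letters went in both directions. An E2F site was searched as TTTGGCGC, TTTCGCGC, TTTCCCGC or TTTGCCGC on both strands. It was present in 1090 of 27303 genes with a window (3.99%) and in 659 of 10536 tested genes with one (6.25%). Among G1/S genes with a window it was present in 26 of 45 (57.8%). Of these 26 genes, 4 were called higher, 13 lower and 9 in neither direction. Among all genes tested, 8.55% were called higher and 7.87% lower. Among genes with a window, the site was in 4.41% of those called higher and 8.54% of those called lower. For CDC25A (chr3:48188398-48188667, minus strand), which fell by 3.14, and for PCNA (chr20:5126603-5126872, minus strand) and E2F2 (chr1:23531214-23531483, minus strand), which rose by 1.82 and 1.68, the windows are given from 250 bases before to 20 after the start with the site in capitals, so that a gene of each direction can be compared.
CDC25A: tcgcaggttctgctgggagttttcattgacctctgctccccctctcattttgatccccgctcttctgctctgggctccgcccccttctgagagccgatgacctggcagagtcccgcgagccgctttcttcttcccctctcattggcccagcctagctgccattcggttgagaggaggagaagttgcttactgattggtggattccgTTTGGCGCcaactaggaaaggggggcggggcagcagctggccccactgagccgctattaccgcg
PCNA: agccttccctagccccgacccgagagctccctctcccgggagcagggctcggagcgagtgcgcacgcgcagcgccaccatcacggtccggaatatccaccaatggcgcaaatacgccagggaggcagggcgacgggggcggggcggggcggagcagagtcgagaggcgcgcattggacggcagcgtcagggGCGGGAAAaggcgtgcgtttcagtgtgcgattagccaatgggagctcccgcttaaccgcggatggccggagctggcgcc
E2F2: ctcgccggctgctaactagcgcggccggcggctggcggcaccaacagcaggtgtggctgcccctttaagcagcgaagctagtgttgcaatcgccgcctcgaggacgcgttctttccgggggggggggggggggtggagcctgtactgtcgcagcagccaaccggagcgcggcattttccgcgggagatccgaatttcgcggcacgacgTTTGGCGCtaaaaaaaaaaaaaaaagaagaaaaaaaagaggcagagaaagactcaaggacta
TYMS (chr18:657614-657621, plus strand) carries the same 8 letters as PCNA, 39 bases before its start.
TYMS: GCGGGAAA

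**Figure D3:**
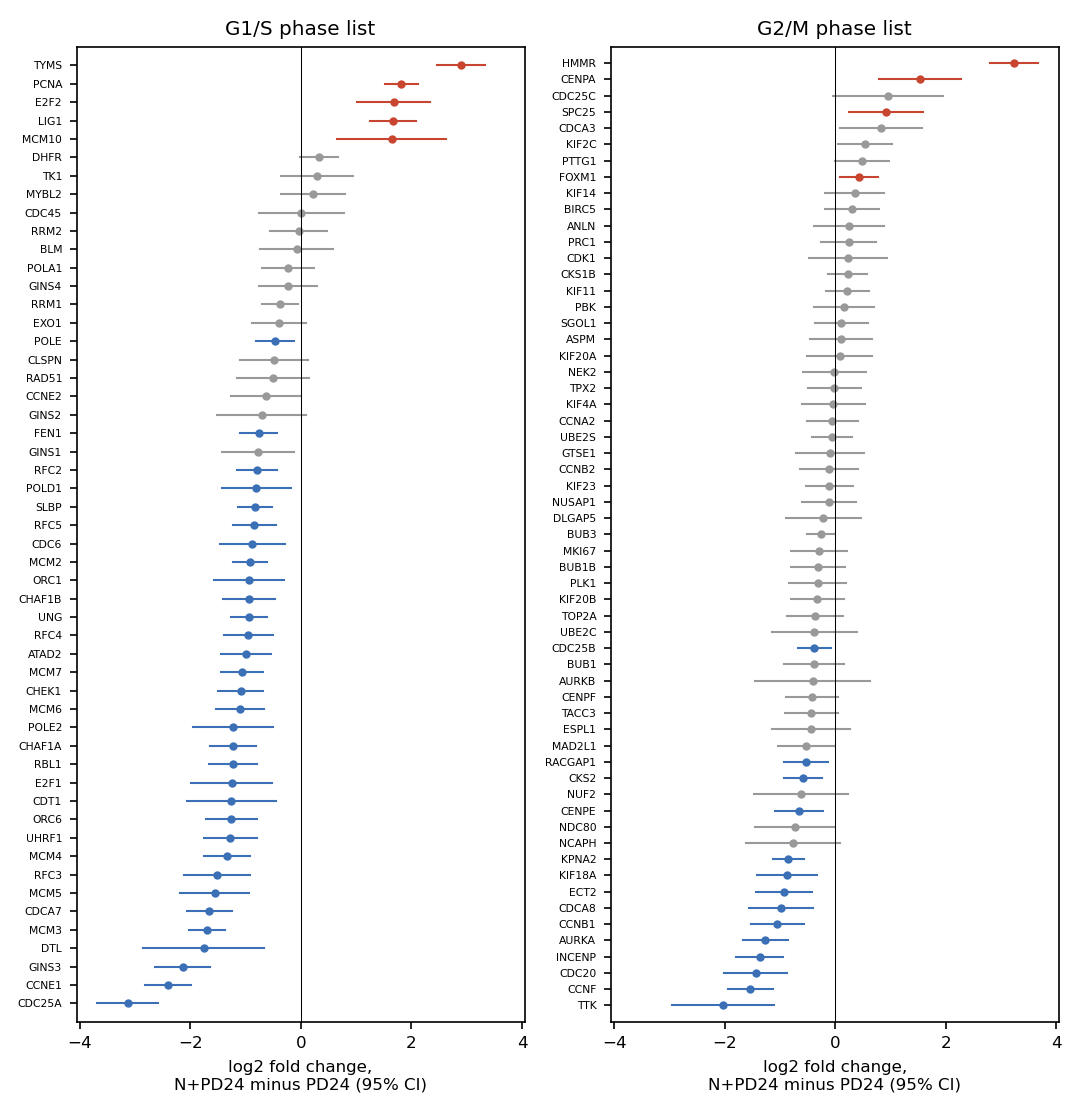
Log2 fold change (N+PD24 minus PD24) of every tested G1/S gene (left, 52) and G2/M gene (right, 59) with its 95% confidence interval, in red or blue where the adjusted p was under 0.05 and grey otherwise. TYMS at 2.90 and HMMR at 3.24 stand at the top, CDC25A at -3.14 and TTK at -2.03 at the bottom, and 32 of 52 G1/S genes and 14 of 59 G2/M genes fell.

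Of 59 G2/M genes, which act in mitosis, 14 fell, 4 rose and 41 did not pass the test (median -0.25). The share that fell, 23.7%, lies near the 21.6% of all genes tested, and 6.78% rose beside 14.8%. HMMR, a spindle and hyaluronan-binding protein, rose most, from 1.89, 1.67 and 1.45 CPM in PD24 to 18.6, 13.3 and 16.6 CPM in N+PD24. The groups were far apart, with a log2 fold change of 3.24 (SE 0.20, adjusted p = 2.65e-06). A transcript on the other strand, HMMR-AS1, overlaps the gene. CENPA, the centromeric histone H3, rose by 1.53. Its mean was 0.398 ± 0.141 CPM in PD24 and 1.16 ± 0.152 in N+PD24, with all 18 libraries scaled together. It needed N+PD24 to pass the filter, so its value is a description. SPC25, a kinetochore subunit, rose by 0.92 (adjusted p = 0.0365) and FOXM1, the factor that drives mitotic genes, by 0.44 (adjusted p = 0.0477). The last 2 rises each failed in 7 of 17 alternatives, and the count of members that rose was 2 with total-count scaling, without PD24 replicate 2 and without N+PD24 replicate 2. The spindle kinase TTK fell by 2.03, CCNF (cyclin F) by 1.53, CDC20, the activator of the anaphase-promoting complex, by 1.44 and INCENP by 1.37, while KPNA2 fell by 0.85. Without PD24 replicate 1 the count of members that fell was 8. The CHR motif TTTGAA, on either strand, was in 36 of 50 G2/M genes with a window (72%). It was in 18.2% of all genes with a window and in 14.5% of the tested ones. Of the 36 G2/M genes 2, HMMR and CENPA, were called higher, 3 lower and 31 in neither direction. Among all genes tested, 8.55% were called higher and 7.87% lower.

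The direct targets of PD0332991, and CCND1 and RB1, changed little, whereas other members of their list fell. CDK4, which is amplified in this line, had 1967, 2351 and 2518 CPM in PD24 and 1829, 2087 and 2268 CPM in N+PD24, with overlapping groups and a log2 fold change of -0.14 (adjusted p = 0.442). CDK6 (-0.29, adjusted p = 0.0943, and 0.0143 with the replicate block), CCND1 (-0.18, 0.224) and RB1 (0.26, 0.185) did not pass the test either. In the list of G1 cyclins, CDKs and pocket proteins, 8 of 20 members tested fell and none rose. The share that fell was 40.0%, beside 21.6% fallen and 14.8% risen among all genes tested. E2F5, a repressive E2F, fell by 1.91 and LIN9, a core subunit of the MuvB complex, by 2.71, from 3.88, 2.04 and 2.0 to 0.264, 0.418 and 0.398 CPM.

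MYC and most genes of ribosome production fell. MYC, the growth-promoting transcription factor, had 81.4, 87.1 and 73.9 CPM in PD24 and 18.1, 24.1 and 25.9 CPM in N+PD24. Each N+PD24 value was below each PD24 value, with a log2 fold change of -1.84 (SE 0.16, adjusted p = 2.09e-05). Of 24 ribosome biogenesis genes, 19 fell (79.2%, beside 21.6% of all genes tested) and none rose (median -0.65). RRS1, an assembly factor of the large subunit, fell by 1.51 and NOP56, a box C/D ribonucleoprotein, by 1.42, from 291, 272 and 322 to 130, 96.1 and 106 CPM. POLR1C, a subunit of RNA polymerases I and III, fell by 1.24, POLR1B, the second largest RNA polymerase I subunit, by 1.22, NIP7 by 1.18 and NOP16 by 1.15. NCL (nucleolin) had a log2 fold change of -0.32 that did not pass the test (adjusted p = 0.06) but did so with the replicate block (adjusted p = 0.0163).

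Growth-factor response genes fell more often than they rose, 16 against 2 of 30 tested in the immediate-early and MAPK list (median -0.60). These shares, 53.3% and 6.67%, stand beside 21.6% fallen and 14.8% risen among all genes tested. JUNB fell by 1.65 with overlapping groups, which failed in 2 of 17 alternatives. ZFP36, which destabilises cytokine mRNAs, fell by 1.48, IER3 by 1.10 and JUN, a subunit of AP-1, by 1.04. The ERK pathway inhibitors DUSP1 and SPRY4 fell by 0.61 and 0.60, which failed in 3 and 1 of 17 alternatives. FOSB rose by 1.24, from 7.65, 7.22 and 6.22 to 12.4, 19.4 and 19.2 CPM, and ATF3, a stress-induced repressor, rose by 0.94.

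MIR17HG, the host RNA of the miR-17-92 cluster, had the largest fall among called genes with separate groups and a mean of at least 1 CPM. It went from 6.90, 4.37 and 6.49 to 0.308, 0.279 and 0.579 CPM, a log2 fold change of -3.85 (SE 0.31, adjusted p = 1.61e-05). The library preparation measured the host RNA and not the mature miRNAs. The mature products encoded in it (RefSeq, GRCh38.p14, chromosome 13, plus strand) are printed to show what the host RNA carries, with the seed, bases 2 to 8, in capitals. miR-17 and miR-20a share 1 seed, miR-19a and miR-19b another, and miR-18a and miR-92a have seeds of their own.
hsa-miR-17-5p: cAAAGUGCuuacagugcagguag
hsa-miR-18a-5p: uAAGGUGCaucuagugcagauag
hsa-miR-19a-3p: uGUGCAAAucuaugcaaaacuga
hsa-miR-20a-5p: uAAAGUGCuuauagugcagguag
hsa-miR-19b-3p: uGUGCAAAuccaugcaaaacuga
hsa-miR-92a-3p: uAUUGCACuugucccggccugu

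The other largest falls were those of MEX3A, an RNA-binding protein (-3.32), of CDC25A, of CCNJ (cyclin J, -3.09), and of the zinc-finger genes ZNF57 (-3.20), ZNF48 (-3.13) and ZNF670 (-3.12), with TIGD5 at -3.11. Some gene families were looked at after these values had been seen, so their counts describe the data and carry no test. The shares of 21.6% fallen and 14.8% risen among all genes tested apply to these counts. Among 469 tested genes with ZNF symbols, 304 fell and 25 rose (median -0.89). Among 71 tested SNORD and SNORA symbols, which name small nucleolar RNAs, 52 fell and none rose (median -1.58). Among 31 HOX symbols, 24 fell and none rose (median -1.11). The ribosomal protein symbols went the other way, with a median of 0.29, 7 rises and 1 fall among 77.

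Of the 8 largest rises by the same rule, CDKN1A was the fifth, and the other 7 came from genes under 1 CPM in every PD24 library, where the fitted value depends on the pseudocount. ZNF300P1, a zinc-finger pseudogene, had 1 read summed over the 3 PD24 libraries and 500 over the 3 N+PD24 libraries, a scaled ratio of 561 with a 95% exact counting interval of 100.2 to 22190. TRIM55, a muscle RING-finger protein, had 2 reads against 583 (ratio 327, interval 90.1 to 2706), and C8orf47 had 2 against 207 (116, interval 31.7 to 965). PKP1, the desmosomal plakophilin 1, had 4 against 352 (98.7, interval 38.2 to 364), and TREM2, a myeloid cell receptor, had 6 against 326 (60.9, interval 27.7 to 167). These 5 genes passed the filter only through N+PD24, so their ratios had to be high and are a description, and the intervals cover counting error only. KRT4, a keratin of stratified epithelia, rose from 0.684, 0.204 and 0.386 to 29.9, 26.8 and 34.2 CPM, and CDH10, a cadherin, from 0.782, 0.286 and 0.410 to 28.4, 20.8 and 22.9 CPM. The groups of both were far apart, with log2 fold changes of 6.18 and 5.61. In PD24 replicate 2 these genes held 5 and 7 reads. They too needed N+PD24 to pass the filter, so their values are a description.

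Other stress and metabolic lists had medians between -0.28 and 0.32, and their counts, to be read against 14.8% risen and 21.6% fallen among all genes, depended on the processing. In the heat shock list 9 of 20 members (45%) rose and none fell (median 0.32), led by HSPA1L at 2.07 and CRYAB at 1.11, the latter failing in 3 of 17 alternatives. The 9 became 3 without the intensity trend, with total-count scaling or with quantile normalization, and 2 to 7 when any 1 of the 6 libraries was left out. Of 22 genes of the unfolded protein and ATF4 response, 5 rose and none fell, among them the endoplasmic reticulum chaperones CALR by 0.56 and HSPA5 by 0.47, neither of which passed with quantile normalization. With the replicate block 10 rose and 3 fell, and without N+PD24 replicate 2 the rises numbered 2.

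In the NF-kB list of 18 tested genes NFKB1 fell by 0.45, BCL3 fell by 0.67 and TNIP1 rose by 0.32, and these failed in 5, 3 and 11 of 17 alternatives. With the replicate block 9 members fell and 2 rose, without PD24 replicate 1 a single member fell, and without N+PD24 replicate 2 none passed. Of 29 interferon response genes 8 fell (27.6%) and 1 rose. IFIT2, which binds viral RNA, was down by 1.16 and OASL by 1.12, while CMPK2 fell by 1.04 and USP18 rose by 0.44, these last failing in 5 of 16 and 5 of 17 alternatives. The 8 became 3 without N+PD24 replicate 2, 4 without PD24 replicate 1 and 5 without PD24 replicate 3. COX4I1 and COX6C were the 2 of 30 oxidative phosphorylation genes that rose, by 0.39 and 0.40, and they failed in 6 and 7 of 17 alternatives. In that list 15 genes rose with the replicate block, 9 with edgeR, none without the intensity trend and 0 to 6 when 1 library was left out. Of 24 cholesterol synthesis genes none passed the test with limma (median 0.30), 1 was higher at an unadjusted p under 0.05, and none passed with edgeR or DESeq2. With the replicate block 11 of them rose and none fell, and without PD24 replicate 3 the rises numbered 3.

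Of 12 reference genes, 3 rose and 2 fell, beside 14.8% risen and 21.6% fallen among all genes tested. Their log2 fold changes ran from -1.19 to 1.35. With the replicate block 6 rose and 2 fell, and without the intensity trend 1 rose and 1 fell. RPLP0 had 1276, 1344 and 1179 CPM against 1765, 1592 and 1291 CPM (log2 fold change 0.28, adjusted p = 0.133, and 0.0348 with the replicate block), whereas TBP, the TATA-binding protein, fell by 1.19.

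Genes of other lineages also moved at low levels. The summed level of 12 epithelial markers was 146 to 240 CPM in PD24 and 121 to 184 CPM in N+PD24, most of it KRT18. CDH1 (E-cadherin) rose by 1.03 to at most 1.70 CPM, which failed in 5 of 16 alternatives, and KRT8 rose by 0.65. The 10 leukocyte markers summed to 32.9 to 36.5 CPM in PD24 and 46.1 to 51.6 CPM in N+PD24, with MS4A1 at 0 in all 6 libraries and CD3E at 0 in 5 of them. The 8 endothelial markers summed to 8.27 to 13.3 and 18.1 to 24.0 CPM. Of 5 leukocyte and 5 endothelial markers tested, 3 of each list rose, 2 of each were called higher and none fell. The shares of 14.8% risen, 8.55% called higher and 21.6% fallen among all genes tested apply to these counts. With total-count scaling 2 of each list rose. The part of these markers in the results was not tested. Among osteoblast genes, DLX5, a homeobox factor, fell by 1.46, and SPARC (osteonectin) rose by 0.38, which failed in 9 of 17 alternatives.

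The response after removal was set against the response to Nutlin in cells that had never received PD0332991, by an interaction term over 12 libraries, none of them shared between the 2 responses. Of 16301 genes tested, 65 (0.399%) were called with a higher and 35 (0.215%) with a lower response after removal. With replicate number as a block the calls numbered 178. They numbered 48 without N+PD24 replicate 2, 56, 35 and 55 without DMSO replicate 1, 2 or 3, and 39 and 62 without Nutlin replicate 2 or 3. Of 134 p53 list members tested in this fit, 9 had a larger response after removal and none a smaller one at an adjusted p under 0.05, beside 0.442% and 0.252% of all genes, and the median difference over the lists was -0.06. The 9 were CDKN1A, FAS, POLH, EDA2R, BTG2, ACER2, DDB2, TRAF4 and E2F7. CDKN1A rose by 5.69 after removal and by 4.55 without PD0332991, a difference of 1.14 (SE 0.19, adjusted p = 0.0142). With all 18 libraries scaled together, its mean was 181 ± 39.1 CPM in DMSO and 4027 ± 237 in Nutlin, against 96.4 ± 7.74 in PD24 and 4903 ± 538 in N+PD24 (SD, n = 3). The groups without Nutlin thus differed as well as those with it. FAS rose by 4.01 against 2.66 (difference 1.35, adjusted p = 0.0158) and POLH by 2.93 against 1.58 (difference 1.34, adjusted p = 0.00271). For DDB2 the difference was 0.79, with a mean of 32.9 ± 0.655 CPM in DMSO and 6.85 ± 0.543 in PD24, and 143 ± 3.73 in Nutlin and 52.6 ± 6.72 in N+PD24, so that a larger fold stood beside a lower level. BTG2 likewise had 52.8 ± 9.42 CPM in N+PD24 and 79.7 ± 10.1 in Nutlin. For POLH these means were 137 ± 12.5 and 165 ± 27.5, and for E2F7 34.0 ± 12.8 and 61.7 ± 14.5, with overlapping groups. The N+PD24 mean was the higher one for CDKN1A, FAS, EDA2R, ACER2 and TRAF4.

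Among genes with a mean of at least 1 CPM over these 12 libraries, the 5 largest positive differences were those of E2F2, FAM111B, MCM10, CENPA and TP73. E2F2 rose by 1.69 after removal and fell by 2.73 without PD0332991 (difference 4.42, SE 0.31, adjusted p = 2.13e-05). Its mean was 18.7 ± 1.36 CPM in DMSO, 2.70 ± 0.218 in Nutlin, 0.690 ± 0.131 in PD24 and 2.32 ± 0.742 in N+PD24. The 2 Nutlin groups therefore lay near each other although the one was below and the other above its control. MCM10 (1.66 and -2.05), CENPA (1.55 and -1.86) and TP73 (1.67 and -1.73), the p53 paralogue, gave differences of 3.71, 3.41 and 3.40. In PD24 their means were 1.13 ± 0.883, 0.398 ± 0.141 and 0.223 ± 0.0117 CPM. In N+PD24 they were 2.91 ± 0.194, 1.16 ± 0.152 and 0.850 ± 0.429 CPM, below the 18.5 ± 1.58, 9.79 ± 2.10 and 4.17 ± 1.53 CPM of Nutlin. The DMSO means were 79.2 ± 4.93, 36.5 ± 3.63 and 13.8 ± 2.19 CPM. HMMR rose by 3.26 after removal, beside 0.12 without PD0332991 (difference 3.13), from 1.72 ± 0.237 to 16.5 ± 2.67 CPM, whereas DMSO and Nutlin stood at 132 ± 4.28 and 142 ± 38.8. TYMS, PCNA and LIG1 gave differences of 2.41, 1.66 and 1.26. TYMS reached 11.9 ± 0.484 CPM in N+PD24, below the 83.6 ± 2.17 CPM of DMSO. For FAM111B the difference of 3.71 came from a fall of 4.02 without PD0332991, since PD24 and N+PD24 were already at 0.360 ± 0.364 and 0.204 ± 0.0710 CPM.

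The 5 largest negative differences by the same rule included those of TBX4, a T-box factor (3.8 against 7.14), CLCA2, a p53-inducible membrane protein (5.05 against 7.99), IFITM10 (1.13 against 3.8) and EPS8L2 (1.64 against 3.70), with differences of -3.34, -2.94, -2.67 and -2.06. TBX4 reached 3.54 ± 0.665 CPM in N+PD24 and 13.8 ± 1.44 in Nutlin. Its controls stood at 0.226 ± 0.0379 CPM in PD24 and 0.0722 ± 0.0433 in DMSO. CLCA2 reached 6.00 ± 1.16 CPM in N+PD24 and 11.1 ± 4.02 in Nutlin. Its controls stood at 0.163 ± 0.0963 CPM in PD24 and 0.0104 ± 0.0180 in DMSO. Both genes passed the filter only through the groups with Nutlin, and their fitted responses depend on the pseudocount. IFITM10 started from 23.7 ± 3.24 CPM in PD24 but 2.06 ± 0.640 in DMSO. GPR157 gave a difference of -2.10, with a response of -0.18 after removal that did not pass the test.

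**Figure D4:**
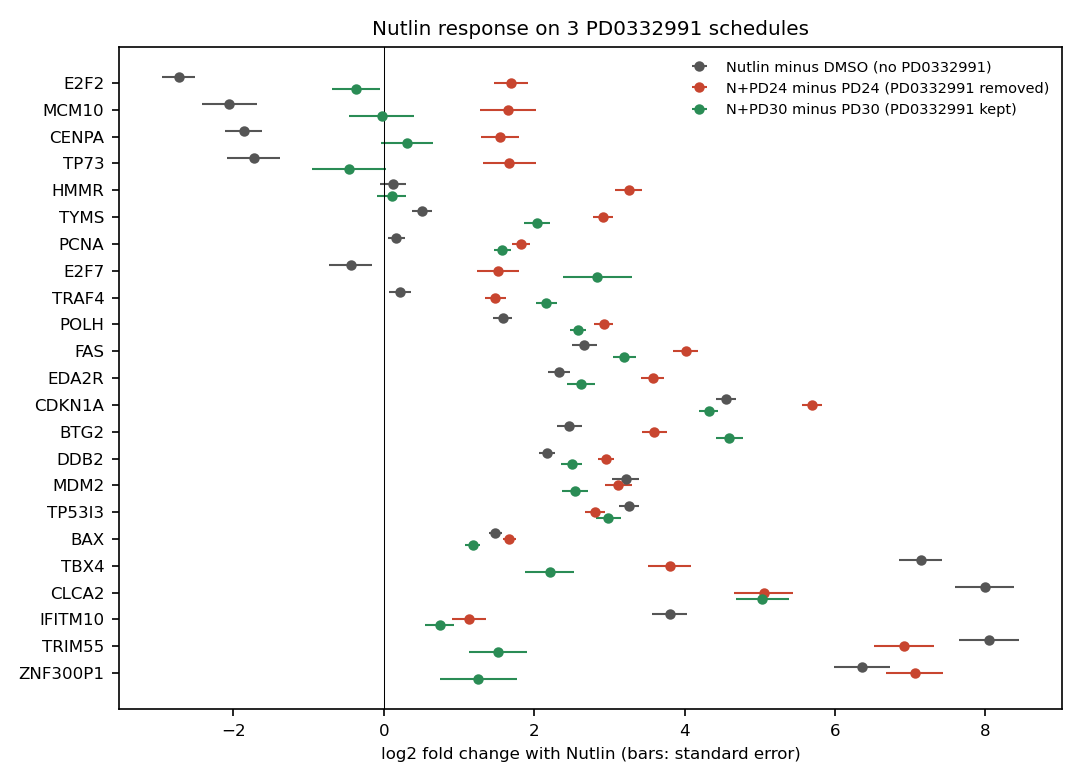
Log2 fold change with Nutlin for 23 genes (point, with its standard error) without PD0332991 (grey, Nutlin minus DMSO), after its removal (red, N+PD24 minus PD24) and with it kept on (green, N+PD30 minus PD30). E2F2 lies at 1.69 after removal and -2.73 without PD0332991, CDKN1A at 5.69 and 4.55, and TRIM55 at 6.92 after removal and 1.52 with the inhibitor kept on.

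Against Nutlin with PD0332991 kept on for 30 h, the response after removal differed for more genes. Of 15924 genes tested over 12 libraries, 533 (3.35%) were called with a higher and 792 (4.97%) with a lower response after removal, 8.32% in all. The N+PD30 group had the lowest median depth of the 6 groups, 20652310 reads (12704845 to 29762195). Of 135 p53 list members tested in this fit, 9 had a larger and 22 a smaller response after removal at an adjusted p under 0.05, beside 4.62% and 9.3% of all genes. CDKN1A rose by 5.67 after removal and by 4.32 with the inhibitor kept on, a difference of 1.35 (SE 0.18, adjusted p = 0.000893), with N+PD30 at 2399 ± 345 CPM from 120 ± 11 CPM in PD30. TNFRSF10A rose by 2.43 after removal, beside -0.05 with it kept on, where it stood at 0.609 ± 0.0729 CPM in PD30 and 0.601 ± 0.170 in N+PD30. FAS and ABCA12 gave differences of 0.79 and 1.99. For MDM2 the responses were 3.09 and 2.54, and the difference of 0.55 did not pass the test (adjusted p = 0.143). Examples of smaller responses after removal were DDIT4, an mTORC1 inhibitor (difference -1.85), SERTAD1 (-1.80) and BTG2 (-1.02). BTG2 rose by 3.57 after removal and by 4.59 with the inhibitor kept on. SCO2 gave -3.88 (SE 1.07) from low levels, 0.12 ± 0.11 CPM in PD30 and 0.75 ± 0.29 in N+PD30. In PD24 and N+PD24 it stood at 0.97 ± 0.68 and 0.32 ± 0.20 CPM, a response that did not pass the test. TYMP overlaps SCO2 on the same strand.

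The 5 largest positive differences among genes with a mean of at least 1 CPM were in genes at or under 0.579 CPM in every PD24, PD30 and N+PD30 library. These could enter the test only through N+PD24 and so had to differ, and their values are a description. ZNF300P1 reached 5.77 ± 1.71 CPM in N+PD24 and 0.115 ± 0.0603 in N+PD30, and TRIM55 reached 6.72 ± 1.43 and 0.235 ± 0.0720 CPM. ZNF605, IGFL3 and PKP1 gave differences of 5.49, 5.35 and 4.70. HMMR (3.12) and E2F2 (2.03) also responded more strongly after removal than with the inhibitor kept on, while TYMS and PCNA rose in N+PD30 as well, from 2.35 ± 0.335 to 9.70 ± 0.910 CPM and from 33.5 ± 3.31 to 99.9 ± 4.58 CPM. At the same minimum level, the largest negative differences were those of ADAT3 (-3.49), TIGD5 (-3.40), ZNF628 (-3.23), HIC1, a zinc-finger repressor and p53 target (-3.20), and ZNHIT2 (-3.04). TIGD5 fell by 3.12 after removal, beside a log2 fold change of 0.28 with the inhibitor kept on, and its PD24 libraries spread from 5.14 to 11.1 CPM. PD24 also spread from 0.541 to 2.37 CPM for ADAT3, 2.88 to 7.04 for ZNF628, 3.42 to 9.87 for HIC1 and 3.94 to 16.3 for ZNHIT2. After removal the responses of ADAT3 (-1.38, adjusted p = 0.0727) and HIC1 (-0.55, adjusted p = 0.347) did not pass the test. With the inhibitor kept on they were 2.11 and 2.64.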

How the data were processed

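RNA of 18 SJSA libraries in 6 groups of 3 was sequenced, and 6 of these libraries, N+PD24 and PD24, form the main comparison. The authors aligned them to hg19 using TopHat with Bowtie 2, then obtained a count for each gene symbol from HTSeq (version 0.6.0). For all groups but N+PD24 the authors deposited plain read counts, 23368 rows per table, of which 28 carry names that a spreadsheet turned into dates. For N+PD24 the authors deposited a normalised signal, counts divided by 1 factor per library. Multiplied back by that factor, 100% of its values were whole (tolerance 0.01 read). N+PD24 and PD24 come from separate tables, joined by row. Other deposited tables (repeats of these columns, and the authors' comparison with fold changes and p-values) were not used.

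Because the deposited N+PD24 values are a signal, the main test was limma 3.58.1 (R 4.3.3) with an intensity trend on log2(normalised reads + 1), after TMM scaling and the low-count filter of edgeR 4.0.16. A call required a p below 0.05 after Benjamini-Hochberg adjustment together with a log2 fold change above 1 in size, and the fit had no replicate block. Fold changes are on the log2 scale with that pseudocount, which understates those of scarce genes. Responses were compared by an interaction term over 12 libraries. Same-numbered PD24 and N+PD24 libraries deviated together (correlations 0.28, 0.30 and 0.16), so the block is given beside a result whose call it changes or whose count it moves by over 1.5 times. In 5 simulations of counts, a gene was recovered at an adjusted p under 0.05 in the simulated direction, with no fold threshold. The main test so recovered on average 72.5% of genes changed 2-fold and 98.2% of those changed 4-fold, among 15458 to 15500 genes. For the difference from the response without PD0332991 these shares were 44.6% and 83.3% (16037 to 16060 genes), and for that from the response with PD0332991 kept on 35.0% and 82.2% (15722 to 15740 genes).

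The members and gene lists were chosen with earlier results of these data known. Named are genes the study follows, members of the p53 lists, the 8 largest rises and falls with separate groups and a mean of at least 1 CPM, up to 6 called and the 2 most abundant members of other lists, near-absent markers, the 5 largest differences per direction of each interaction, and any gene said to be chosen after its values were seen. Some genes that this rule selects are not reported here. Of 157 such genes 152 were placed on GRCh37, where 19 overlap a gene on the same strand and 80 one on the other. HTSeq was run with its reverse-stranded setting, and whether the library kit keeps the strand is not given in the sources used here. Alternatives were DESeq2 1.42.0 and edgeR on the recovered reads, other scalings, pseudocounts, filters and thresholds, a replicate block, and leaving out each library.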

Additional observations from a re-analysis of the deposited data

Results flagged for a closer look

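Genes are given here because the difference between 2 Nutlin responses itself passed the interaction test (limma, adjusted p under 0.05). In all, 100 genes were called against the response without PD0332991 and 1325 against that with PD0332991 kept on. Values are log2 differences, the response after removal minus the other one, and the levels behind some of them stand in the report.

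Against the response without PD0332991, the positive differences included 4.42 for E2F2, 3.71 for FAM111B, 3.71 for MCM10, 3.41 for CENPA, 3.40 for TP73, 3.13 for HMMR, 2.41 for TYMS, 1.66 for PCNA and 1.26 for LIG1. Of the p53 targets, E2F7 had a difference of 1.96, ACER2 of 1.54, FAS of 1.35, POLH of 1.34, TRAF4 of 1.27, EDA2R of 1.24, CDKN1A of 1.14, BTG2 of 1.13 and DDB2 of 0.79. The negative differences were -3.34 for TBX4, -2.94 for CLCA2, -2.67 for IFITM10, -2.10 for GPR157 and -2.06 for EPS8L2.

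Against the response with PD0332991 kept on, ZNF300P1 differed by 5.77, ZNF605 by 5.49, TRIM55 by 5.36, IGFL3 by 5.35 and PKP1 by 4.70, genes that entered this test only through N+PD24. HMMR differed by 3.12, TNFRSF10A by 2.48, E2F2 by 2.03, ABCA12 by 1.99, CDKN1A by 1.35 and FAS by 0.79. On the other side stood the scarce SCO2 at -3.88, ADAT3 at -3.49, TIGD5 at -3.40, ZNF628 at -3.23, HIC1 at -3.20, ZNHIT2 at -3.04, DDIT4 at -1.85, SERTAD1 at -1.80 and BTG2 at -1.02. BTG2 thus rose more after removal than without PD0332991 and less than with it kept on.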

How the results depend on the processing

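The number of genes called in N+PD24 against PD24 stayed within 1.5 times the 2547 reported under all alternatives (1797 to 3672; edgeR 2534, DESeq2 2858, quantile normalization 2197) except the looser thresholds, with 5655 at the adjusted p alone and 4858 at an absolute log2 fold change over 0.5, and leaving out 1 library gave 2233 to 2830. Without a filter, 2356 of 3672 calls were higher, and with a mean of at least 1 CPM 717 of 1797. The replicate block gave 2619 calls. For the difference from the response without PD0332991 it gave 178 in place of 100, and leaving out 1 library gave 35 to 91. For the difference from the response with PD0332991 kept on, the 1325 calls became 2216 at the adjusted p alone and 2174 at a difference over 0.5, with 891 to 1536 when 1 library was left out. DESeq2 was not run for these differences.

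The p53 list members that rose numbered 64 to 92 throughout, beside 84. The 5 that fell became 0 at a fold threshold of 1, 11 with total counts, 3 without the intensity trend, 11 with the replicate block, and 1 to 6 when 1 library was left out. With a fold threshold of 1, the 32 G1/S genes that fell became 19, the 4 G2/M genes that rose became 2 and the 14 that fell 6. The 4 became 2 with total counts and 2 or 3 when 1 library was left out, and the 14 became 8 to 13. The block changed no other count of these lists by over 1.5 times, its effect on smaller lists and single genes stands beside them in the report, and it took no named gene below the threshold. Of 156 single genes tested, 114 stayed on the same side of the threshold in every alternative, and 2 that did not pass the test changed sign with quantile normalization, MDM4 to 0.030 and RPLP0 to -0.040. The causes of these changes were not tested. With 3 libraries a group part of the smaller changes is missed, and genes under 1 CPM rest on few reads.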
